A study of Sus scrofa with 31 samples.

Results

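The 8 genes described here regulate blood clotting and the dissolution of clots at the vessel wall: F3, F2R, TFPI, TFPI2, THBD, SERPINE2, SERPINB2 and PLAT. They were found by gene name in RNA sequencing tables of pig (Sus scrofa) myocardium, where all 8 were among 21313 genes of the table of stored hearts and 7 were among 25149 genes of the table of rewarmed hearts; F2R after rewarming was not analysed here. Arm 1 followed 6 hearts through preservation, with biopsies at 0, 12, 24 and 48 h: pigs 2, 4 and 6 carry the label HOPE and pigs 1, 3 and 5 the label SCS, for 24 libraries. Arm 2 sampled hearts after preservation and a further 2 h of NMP, normothermic machine perfusion at body temperature; it holds 1 library after 24 h of SCS (SCS+NMP) and, after HOPE (HOPE+NMP), 2 libraries for each of 3, 24 and 48 h. The labels do not spell out the abbreviations; the usual readings are hypothermic oxygenated perfusion, in which cold solution is pumped through the coronary vessels, and static cold storage, in which the heart lies in cold solution without flow. All hearts carry no genetic change or other treatment in the labels, which give no strain, sex or age, and each method was tested in different pigs.

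Clotting in a vessel starts when tissue factor (F3), a membrane protein normally kept away from blood, meets factor VII, and it runs through factor X to thrombin. Thrombin makes fibrin and also signals to cells through protease-activated receptors, of which F2R (PAR1) is the main thrombin receptor of endothelium and fibroblasts. Endothelial cells oppose clotting with TFPI, which blocks tissue factor and factor Xa, and with thrombomodulin (THBD), which turns thrombin into an activator of protein C. Fibrin is removed by plasmin, which tissue plasminogen activator (PLAT) releases from plasminogen and which serpins restrain.

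Per library, 19722065 to 35099406 whole reads could be recovered from the arm 1 values, which are counts divided by a size factor for each library (normalised counts). These values are not divided by gene length, so levels of different genes are set against each other only in arm 2, whose values are in TPM, the share of transcripts after division by gene length. The labels name cardiomyocytes as the cell type, but endothelial, fibroblast and mural markers were also present in every group, so the biopsies are described as myocardium. In such bulk samples, fewer cells of a type and less RNA per cell cannot be told apart. Mitochondrially encoded protein genes took 29.0 to 39.5% of reads in HOPE libraries and 33.1 to 82.4% in SCS libraries, with the SCS 48 h library of pig 5 highest. The summed endothelial markers (11 of 12 found) were lowest in the SCS 48 h library of pig 1. Differences were tested with limma on log2(value + 1) over all 14141 genes of arm 1 with a mean of at least 10, and a gene was called at a Benjamini-Hochberg adjusted p under 0.05. The 4 biopsies of a pig come from the same heart, so the test was also run with the pig as a block, and that value is given where it changes a call. In arm 2 nothing says that replicates came from separate animals, so p-values there measure only the spread between these libraries, which may be technical.

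**Figure D1:**
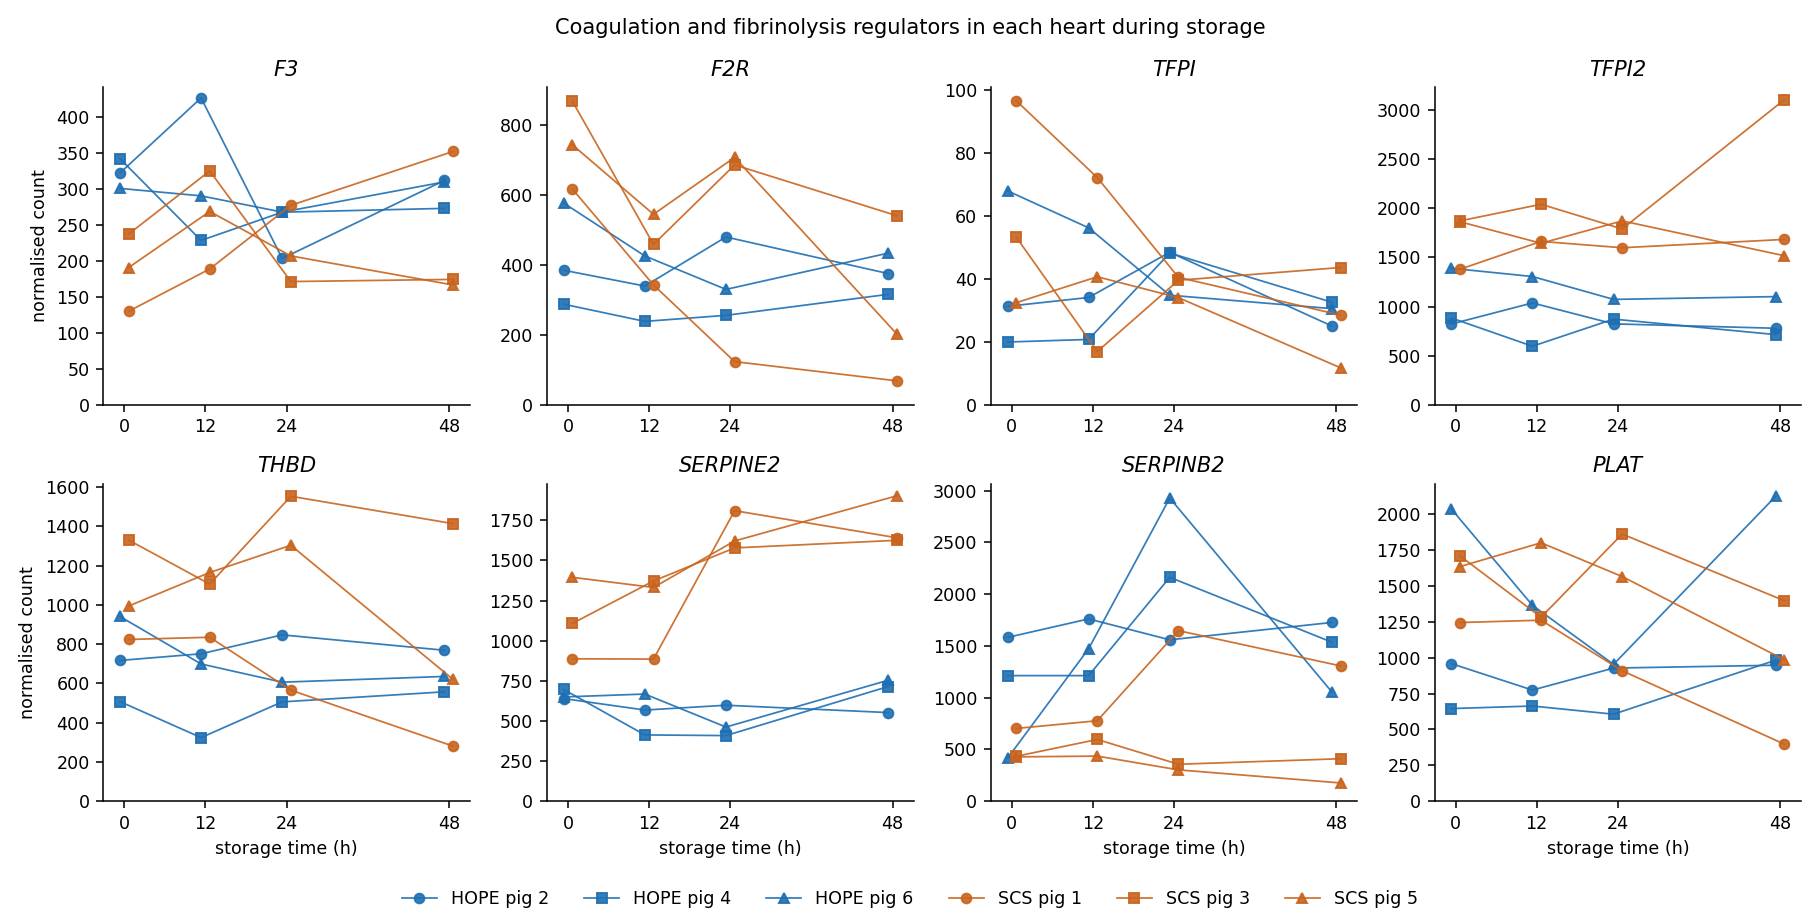
Normalised counts of the 8 genes (vertical axes, from 0, a scale of its own for each gene) against storage time in hours (horizontal axes) in each heart; blue lines are HOPE pigs 2, 4 and 6, orange lines SCS pigs 1, 3 and 5. All 12 HOPE values of SERPINE2 (408 to 753) lie under all 12 SCS values (885 to 1903), and F2R of SCS pig 1 ends at 68.0.

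The clearest difference between the methods was in SERPINE2 (protease nexin 1), a serpin that inhibits thrombin, plasmin and plasminogen activators at the cell surface and in the matrix. At 24 h SERPINE2 read 598, 408 and 462 normalised counts in HOPE pigs 2, 4 and 6, against 1810, 1578 and 1621 in SCS pigs 1, 3 and 5. At 48 h it read 552, 714 and 753 in the HOPE hearts, against 1641, 1626 and 1903 in the SCS hearts. The groups did not overlap at either time. SERPINE2 was lower under HOPE by a log2 fold change of -1.79 ± 0.21 (SE) at 24 h, with an adjusted p of 0.000657 by limma, the smallest p of the 14141 genes tested. At 48 h the log2 fold change was -1.36 ± 0.21 with an adjusted p of 0.00467, the eighth smallest p. Over all genes, 2.04% were called at 24 h (0.771% lower under HOPE) and 6.25% at 48 h (2.41% lower). The 24 h call held without each pig in turn, with adjusted p of 0.000551 to 0.0356, while the 48 h call ended without SCS pig 5 (adjusted p = 0.0746) or HOPE pig 2 (adjusted p = 0.0747). Scaling to total reads, which moved the median of all genes by 0.39 at 24 h and 1.12 at 48 h, gave -1.40 (adjusted p = 0.0926) and -0.25 (adjusted p = 0.537), or -1.79 and -1.37 relative to that shift; without the mitochondrially encoded genes in the total both calls held.

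The SERPINE2 groups were already apart in the first biopsies. At 0 h SERPINE2 read 639, 696 and 649 normalised counts in HOPE hearts, against 887, 1108 and 1395 in SCS hearts. At 12 h it read 568, 413 and 667 in HOPE hearts, against 885, 1372 and 1332 in SCS hearts. The groups were thus apart at all 4 times, and the estimated difference was larger at 24 and 48 h than at 0 and 12 h. The log2 fold change was -0.75 ± 0.21 in the 0 h biopsies (limma adjusted p = 0.660) and -1.12 ± 0.21 in the 12 h ones (limma adjusted p = 0.119), so neither passed over all genes, although DESeq2 called the gene at 12 h (adjusted p = 0.000867). Of all genes tested, 0.509% lay lower in HOPE at all 4 times without overlap, and 0.156% had all 12 HOPE libraries under all 12 SCS libraries, as SERPINE2 did. At 0 h no storage time had passed, and the methods were applied to different pigs. How much of the later differences was already there between the animals cannot be told apart.

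Within single hearts, SERPINE2 was lower at 24 h than at 0 h in every HOPE heart and higher in every SCS heart. The log2 change was -0.10, -0.77 and -0.49 in HOPE pigs 2, 4 and 6, against 1.03, 0.51 and 0.22 in SCS pigs 1, 3 and 5. The difference between the methods in this change, a comparison added after the data were seen, was -1.04 ± 0.30. It had the third smallest p of all genes but did not pass adjustment over them (limma adjusted p = 0.9997). An exact two-sided permutation test over the 6 pigs gave p = 0.1, the smallest that 3 against 3 allows. Hearts of the methods on opposite sides of 0 always give this p, so the test adds nothing to that pattern. Of all genes, 4.29% lay on one side of 0 in every HOPE heart and on the other side in every SCS heart over 24 h. Over 48 h the log2 change was -0.21, 0.04 and 0.21 in the HOPE hearts, against 0.89, 0.55 and 0.45 in the SCS hearts, whose mean turned to -0.35 with total-read scaling. Neither SERPINE2 against its own 0 h level in HOPE hearts (-0.45 ± 0.21 at 24 h, 0.01 ± 0.21 at 48 h) nor in SCS hearts (0.59 ± 0.21 at 24 h, 0.63 ± 0.21 at 48 h) passed the limma test over all genes, where the adjusted p-values were 0.492 or more. Markers of fibroblasts, a cell type in which SERPINE2 is known to be made, also sat lower in HOPE hearts at 24 h: 7 of 8 had negative log2 fold changes (6 at an unadjusted p under 0.05) with a median of -0.66, none was called without a block and DPT was called lower with it (adjusted p = 0.0473), and their sum ranged from 69444 to 74341 normalised counts in HOPE hearts and from 96412 to 114796 in SCS hearts. At 48 h the fibroblast sums ranged from 80497 to 86819 in HOPE hearts. In SCS hearts they ranged from 55070 in pig 5 to 149616 in pig 3. The part of fibroblasts in the SERPINE2 difference was not tested at either time. Across the 24 libraries SERPINE2 had a Pearson r of 0.77 with the mitochondrial share of reads, which was 0.69 within SCS libraries and -0.26 within HOPE libraries.

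TFPI2, a Kunitz-type inhibitor of plasmin and of factor VIIa bound to tissue factor that is laid down in the matrix, showed the second difference called. At 48 h it read 778, 714 and 1101 normalised counts in HOPE hearts, against 1684, 3110 and 1517 in SCS hearts. The groups did not overlap, and SCS pig 3 stood highest. The log2 fold change was -1.23 ± 0.29 with a limma adjusted p of 0.0243. This call ended without SCS pig 3, SCS pig 5, HOPE pig 2 or HOPE pig 4 (adjusted p of 0.129 to 0.175) and without the SCS 48 h library of pig 5 alone (adjusted p = 0.0583). With total-read scaling it was -0.11 (adjusted p = 0.825), or -1.23 relative to the shift of all genes. At 24 h TFPI2 read 823, 872 and 1073 in HOPE hearts, against 1599, 1790 and 1873 in SCS hearts, again without overlap. That log2 fold change, -0.93 ± 0.29, missed the threshold without the pig as a block (limma adjusted p = 0.0716) and passed it with the pig as a random block (adjusted p = 0.0354).

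At the start TFPI2 was also lower in most HOPE hearts. It read 821, 883 and 1390 normalised counts in HOPE hearts at 0 h, against 1380, 1873 and 1864 in SCS hearts, and the groups overlapped only through HOPE pig 6 and SCS pig 1. Its log2 fold change was -0.75 ± 0.29 in the 0 h biopsies (limma adjusted p = 0.665) and -0.93 ± 0.29 in the 12 h ones (limma adjusted p = 0.246). Within hearts, the log2 change of TFPI2 over 48 h was -0.08, -0.31 and -0.34 in HOPE pigs and 0.29, 0.73 and -0.30 in SCS pigs; these ranges overlapped. Its relative TFPI, the soluble and endothelial inhibitor of tissue factor, was the lowest-counted member. TFPI read 19.9 to 68.0 normalised counts over the 12 HOPE libraries and 11.7 to 96.7 over the 12 SCS libraries, and its log2 fold changes between the methods ran from -0.64 ± 0.54 at 0 h to 0.24 ± 0.54 at 48 h. TFPI was not called between the methods at any of the 4 times (limma adjusted p of 0.718 or more). Over 48 h its log2 change was -1.73, -0.28 and -1.40 within SCS pigs 1, 3 and 5. Within HOPE pigs 2, 4 and 6 it was -0.31, 0.68 and -1.13, and neither change was called. The SCS 48 h values rest on only 18, 36 and 4 TFPI reads in pigs 1, 3 and 5.

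**Figure D2:**
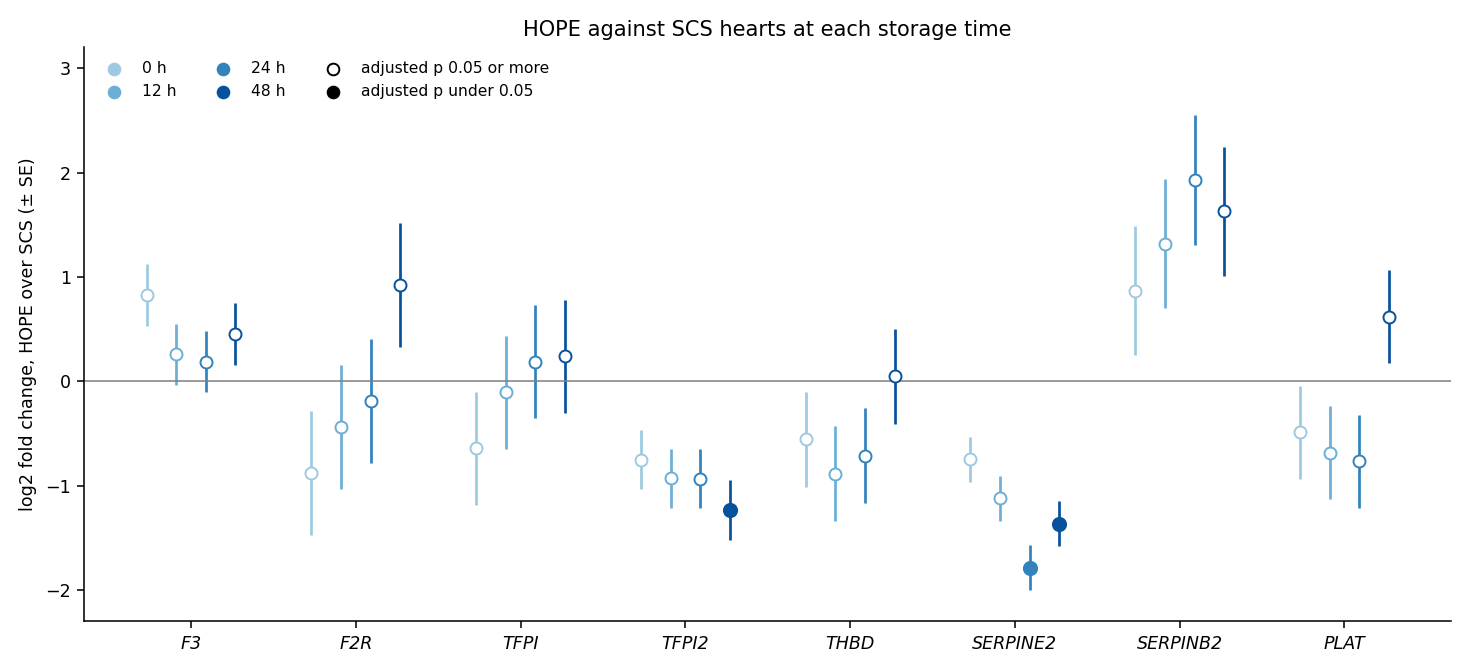
Log2 fold change of HOPE over SCS hearts (vertical axis, ± SE from limma) for each gene at 0, 12, 24 and 48 h (light to dark); filled points passed an adjusted p of 0.05 over all 14141 genes. SERPINE2 and TFPI2 lie under 0 at all 4 times and SERPINB2 above 0, while F2R and PLAT lie under 0 at 0 to 24 h and above 0 at 48 h (with total-read scaling F2R lies above 0 from 12 h on).

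SERPINB2 (PAI-2), a serpin that inhibits the urokinase and tissue types of plasminogen activator and is mostly kept inside cells, pointed the other way. At 24 h it read 1558, 2162 and 2928 normalised counts in HOPE hearts, against 1647, 356 and 302 in SCS hearts. The groups overlapped because SCS pig 1 was as high as a HOPE heart; the other 2 SCS hearts were far under them. The log2 fold change was 1.93 ± 0.62, which missed the threshold without a block (limma adjusted p = 0.0785) and passed it with the pig as a random block (adjusted p = 0.0441). Without SCS pig 1 it was 2.71 ± 0.45 (limma adjusted p = 0.00459 with no block), and with the block it was not called without any other pig (adjusted p of 0.0515 to 0.251). With the block, 9.87% of all genes were called at 24 h, and 3 of the 8 members were: SERPINE2 and TFPI2 lower and SERPINB2 higher under HOPE.

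At 48 h SERPINB2 read 1726, 1535 and 1053 normalised counts in HOPE hearts, against 1306, 409 and 175 in SCS hearts, with a log2 fold change of 1.63 ± 0.62 (limma adjusted p = 0.0997). At 12 h it read 1760, 1212 and 1472 in HOPE hearts, against 776, 596 and 435 in SCS hearts, a difference of 1.32 ± 0.62 without overlap (limma adjusted p = 0.301). At 0 h the values were 1581, 1212 and 414 in HOPE hearts and 702, 433 and 427 in SCS hearts. HOPE pig 6 thus began at the level of the SCS hearts and read 2928 by 24 h, a log2 change of 2.82, whereas the change was -0.02 in HOPE pig 2, 0.83 in HOPE pig 4 and 1.23 in SCS pig 1. No change of SERPINB2 from 0 h was called in either method. The summed cardiomyocyte markers (7 of 8 found) read 1317052, 1290541 and 1478438 normalised counts in HOPE pigs 2, 4 and 6 at 24 h, against 1458050, 872208 and 967465 in SCS pigs 1, 3 and 5. At 48 h they read 1388634, 1473564 and 1388036 in the HOPE hearts, against 1549687, 893488 and 948043 in the SCS hearts. At 12 h they read 1163296, 1273664 and 1145403 in the HOPE hearts, against 1037631, 1193152 and 1125976 in the SCS hearts. The part of these markers in the SERPINB2 values was not tested.

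F3 was the member with the narrowest spread in arm 1, from 204 to 427 normalised counts over the HOPE libraries and from 130 to 353 over the SCS libraries. At 0 h it read 323, 343 and 301 in HOPE hearts, against 130, 238 and 191 in SCS hearts. The groups did not overlap, and the log2 fold change of 0.83 ± 0.29 did not pass over all genes (limma adjusted p = 0.660). In the later biopsies the F3 groups overlapped: the difference was 0.26 ± 0.29 after 12 h, 0.19 ± 0.29 after 24 h and 0.45 ± 0.29 after 48 h. From 0 to 12 h the log2 change of F3 was 0.40, -0.58 and -0.05 within HOPE pigs 2, 4 and 6, and 0.54, 0.45 and 0.49 within SCS pigs 1, 3 and 5. The pigs of the methods did not overlap in this change, as for 15.9% of all genes.

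F2R, the thrombin receptor, had the largest change from 0 h of the 8 members, in SCS hearts at 48 h. In SCS pigs 1, 3 and 5 it read 617, 868 and 743 normalised counts in the 0 h biopsies, 342, 458 and 544 after 12 h, 123, 686 and 707 after 24 h, and 68.0, 540 and 202 after 48 h. All 3 SCS hearts were lower after 48 h than any was to begin with, as for 6.21% of all genes, with log2 changes of -3.16, -0.68 and -1.88 within pigs 1, 3 and 5. In HOPE hearts F2R read 375, 315 and 433 at 48 h, against 384, 287 and 576 at 0 h, which is a log2 change of -0.04, 0.14 and -0.41 within pigs 2, 4 and 6.

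The mean SCS change of F2R over 48 h was -1.91. It was not called without a block (SE 0.59, limma adjusted p = 0.448) and was called lower with the pig as a block (SE 0.38, adjusted p = 0.0232), where 2.18% of all genes were called and 1.1% called lower. The call with the block ended without the SCS 48 h library of pig 1 (-1.53, adjusted p = 0.0661), without that of pig 5 (-1.73, adjusted p = 0.0916), and without SCS pig 5, HOPE pig 2 or HOPE pig 4 (adjusted p of 0.0638 to 0.114). The difference between the methods in the 48 h change, 1.80 ± 0.84, did not pass (limma adjusted p = 0.988); the pigs of the methods did not overlap, as for 15.1% of all genes, and the exact permutation test gave its smallest p, 0.1. At 0 h F2R was lower in HOPE hearts without overlap, with a log2 fold change of -0.88 ± 0.59 (limma adjusted p = 0.682), and at 48 h the value was 0.92 ± 0.59 (limma adjusted p = 0.312).

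The summed endothelial markers were lower along with F2R in pig 1 but not in pig 5. From 0 to 48 h the log2 change of their sum was -1.75 in SCS pig 1, where it read 10383 normalised counts at 48 h, -0.18 in pig 3 and 0.07 in pig 5. The F2R change of -1.88 in pig 5 stood beside an endothelial sum close to its 0 h level, whose 11 markers changed by -0.67 to 1.64. It rests on 69 F2R reads in the library with 82.4% mitochondrial reads. The part of endothelial cells in the F2R change was not tested. Marker by marker, 10 of 11 were lower in SCS pig 1 (median log2 change -1.96), 8 in pig 3 (-0.12) and 5 in pig 5 (0.02). Over the 3 SCS hearts 9 of the 11 had negative log2 changes with a median of -0.71; limma called none without a block, and with the block that called F2R it called PECAM1 lower (-1.18, adjusted p = 0.0495). In HOPE pigs 2, 4 and 6 the log2 change of the endothelial sum was 0.03, 0.31 and -0.57 over the same time.

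PLAT, the endothelial plasminogen activator, was lower at 48 h than at 0 h in each SCS heart. It read 397, 1398 and 985 normalised counts in SCS hearts at 48 h, against 1246, 1711 and 1636 at 0 h, a mean log2 change of -0.89 ± 0.45 that was not called (limma adjusted p = 0.632; 0.0600 with the pig as a block). With total-read scaling, which moved the median of all genes by -0.99, the SCS changes of 4 members were called lower by limma: F2R (-2.88, adjusted p = 0.0130), PLAT (-1.87, adjusted p = 0.0151), THBD (-1.69, adjusted p = 0.0209) and TFPI (-2.02, adjusted p = 0.0302). Relative to that shift they were -1.89, -0.88, -0.70 and -1.03. This scaling also called 13 of 28 other clotting genes, 8 of 11 endothelial and 1 of 8 fibroblast markers lower, and 0 of 7 cardiomyocyte markers. These calls include the shift of all genes, and the share of all genes called under this scaling is not given here. That of TFPI rests on 18, 36 and 4 reads in the SCS 48 h libraries. In HOPE hearts PLAT read 948, 983 and 2127 at 48 h, against 959, 646 and 2039 at 0 h. The within-heart changes over 48 h were -0.02, 0.61 and 0.06 in HOPE pigs and -1.65, -0.29 and -0.73 in SCS pigs; they did not overlap, and the difference of 1.11 ± 0.63 was not called (limma adjusted p = 0.988).

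THBD, the endothelial thrombin receptor that starts protein C activation, differed from pig to pig within SCS. It read 280, 1414 and 620 normalised counts in SCS pigs 1, 3 and 5 at 48 h, against 824, 1330 and 994 at 0 h. Pigs 1 and 5 were lower and pig 3 was not, with log2 changes of -1.55, 0.09 and -0.68. In HOPE hearts THBD read 769, 557 and 635 at 48 h, against 717, 507 and 941 at 0 h. Between the methods, the log2 fold change of THBD was -0.56 ± 0.46 in the 0 h biopsies, -0.89 ± 0.46 after 12 h, where the groups did not overlap, -0.71 ± 0.46 after 24 h and 0.05 ± 0.46 after 48 h (-0.53 without SCS pig 1), and none was called (limma adjusted p of 0.308 or more).

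**Figure D3:**
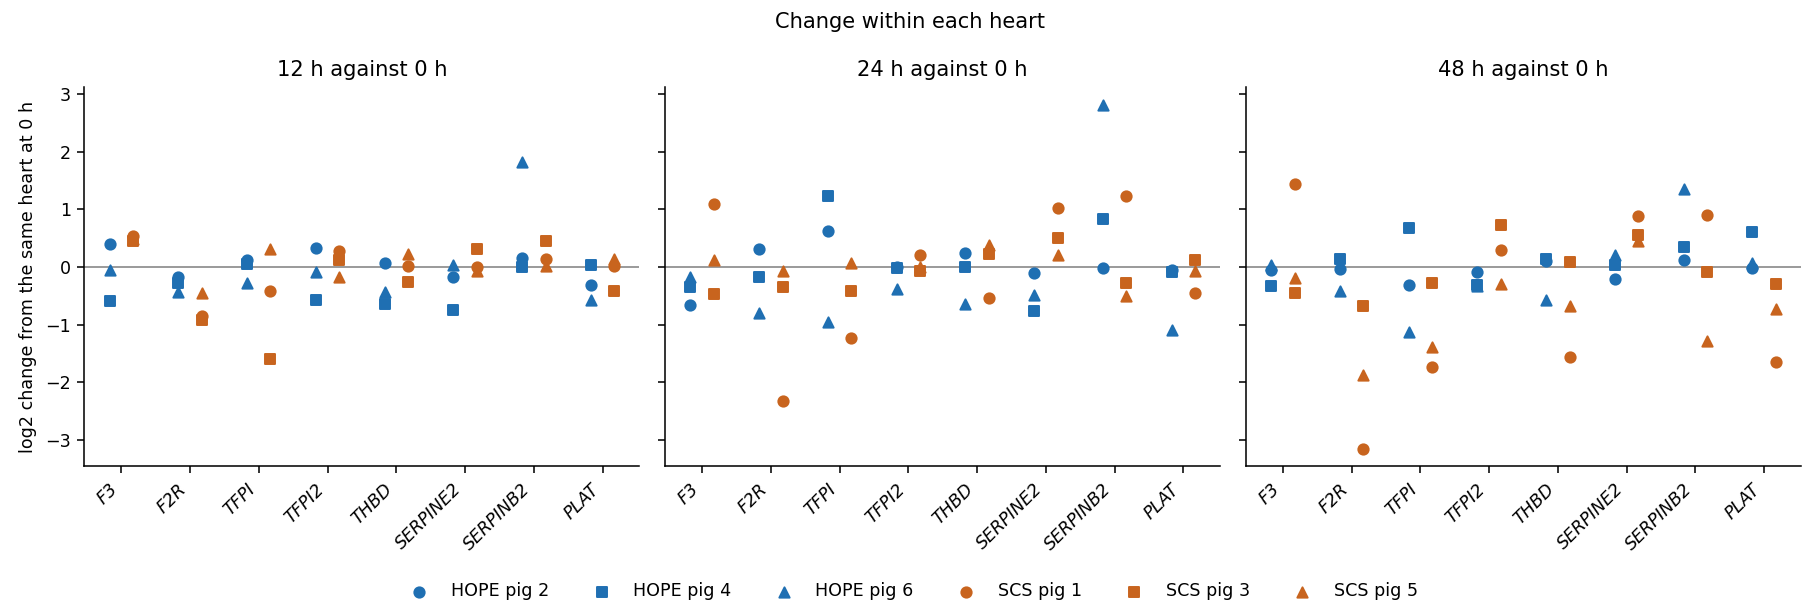
Log2 change from the 0 h biopsy of the same heart (vertical axis) for each gene at 12, 24 and 48 h; each point is 1 heart, HOPE in blue left of SCS in orange, with marker shapes for the pigs. At 24 h the SERPINE2 points of HOPE hearts (-0.77 to -0.10) lie under 0 and those of SCS hearts (0.22 to 1.03) above it, and at 48 h F2R of SCS hearts lies at -3.16 to -0.68.

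Counted over the 8 members, limma called none lower or higher under HOPE at 0 h (0% of all genes called) or at 12 h (0.0141% called), SERPINE2 alone at 24 h and SERPINE2 and TFPI2 at 48 h. At an unadjusted p under 0.05 there were 3 members at each of the 4 times, against 7.21%, 16.3%, 26.8% and 27.8% of all genes. EdgeR on the recovered reads called 0, 0, 1 and 2 members, and DESeq2 0, 1, 2 and 2. The numbers of all genes these tools called at 24 and 48 h are given at the end. Those at 0 and 12 h are not given here. The groups did not overlap for 3, 4, 2 and 2 members at 0, 12, 24 and 48 h, against 11.4%, 23.7%, 26.8% and 20.6% of all genes. Against 0 h, limma without a block, edgeR and DESeq2 each called 0 members at every time in both methods; unadjusted p-values under 0.05 numbered 0, 1 and 0 in HOPE hearts (0.53%, 1.52% and 1.39% of all genes) and 0, 1 and 3 in SCS hearts (1.14%, 3.41% and 8.08%) after 12, 24 and 48 h. Neither these comparisons nor the differences in change had a gene called over the whole table without the block (0%). The 8 members had a median log2 fold change under HOPE of -0.60, -0.56, -0.45 and 0.35 in the biopsies of 0, 12, 24 and 48 h, beside medians over all genes of -0.02 to 0.02.

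Across the 24 biopsies, F2R, THBD and PLAT were correlated with each other and with the endothelial markers. Pearson's r of log2 values was 0.84 between F2R and THBD, and 0.80 both between F2R and PLAT and between THBD and PLAT. With the summed endothelial markers, r was 0.88 for PLAT, 0.84 for THBD and 0.74 for F2R, against -0.83 for SERPINB2, which had an r of 0.81 with the summed cardiomyocyte markers. SERPINE2 had an r of 0.51 with the endothelial sum over all libraries, but 0.40 within HOPE and -0.12 within SCS libraries. With TFPI2 its r was 0.82 over all libraries, but 0.36 within HOPE and 0.25 within SCS libraries. These values describe libraries that share pigs, depth and size factors, and the endothelial and cardiomyocyte sums themselves had an r of -0.81. In HOPE hearts all 11 endothelial markers had negative log2 fold changes at 0, 12 and 24 h and 8 of 11 at 48 h, with medians of -0.86, -0.98, -0.90 and -0.36. None of them was called without a block, and CLDN5 and EGFL7 were called lower with the pig as a block at 24 h (adjusted p = 0.0136 and 0.0300) and at 48 h (0.0154 and 0.0210). Of 7 cardiomyocyte markers, 5, 4, 5 and 4 had positive log2 fold changes under HOPE, with medians of 0.23, 0.01, 0.71 and 0.25; none was called without the block, and with it MYBPC3 was called higher at 24 h (adjusted p = 0.0492) and MYBPC3 and MYH7 at 48 h (0.0344 and 0.0390). With total-read scaling the 48 h medians were 0.76 for endothelial and 1.37 for cardiomyocyte markers, in which the shift of all genes is included. The part of these markers in the differences of the members was not tested. The 6 mural markers were likewise negative at every time (medians of -0.48 to -0.65, none called), and the 3 red cell markers tested had medians of 0.10, 2.38, 2.82 and 2.43, with 1 called higher at 48 h. Of 7 macrophage markers, AIF1 was called lower at 48 h, and with the block also at 24 h (adjusted p = 0.0405), and the medians were -0.41, -0.32, -0.34 and 0.37. No platelet or mesothelial marker was called without the block (2 of each tested); with it the platelet marker GP9 was called lower at 24 and 48 h (adjusted p = 0.0320 and 0.0281).

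**Figure D4:**
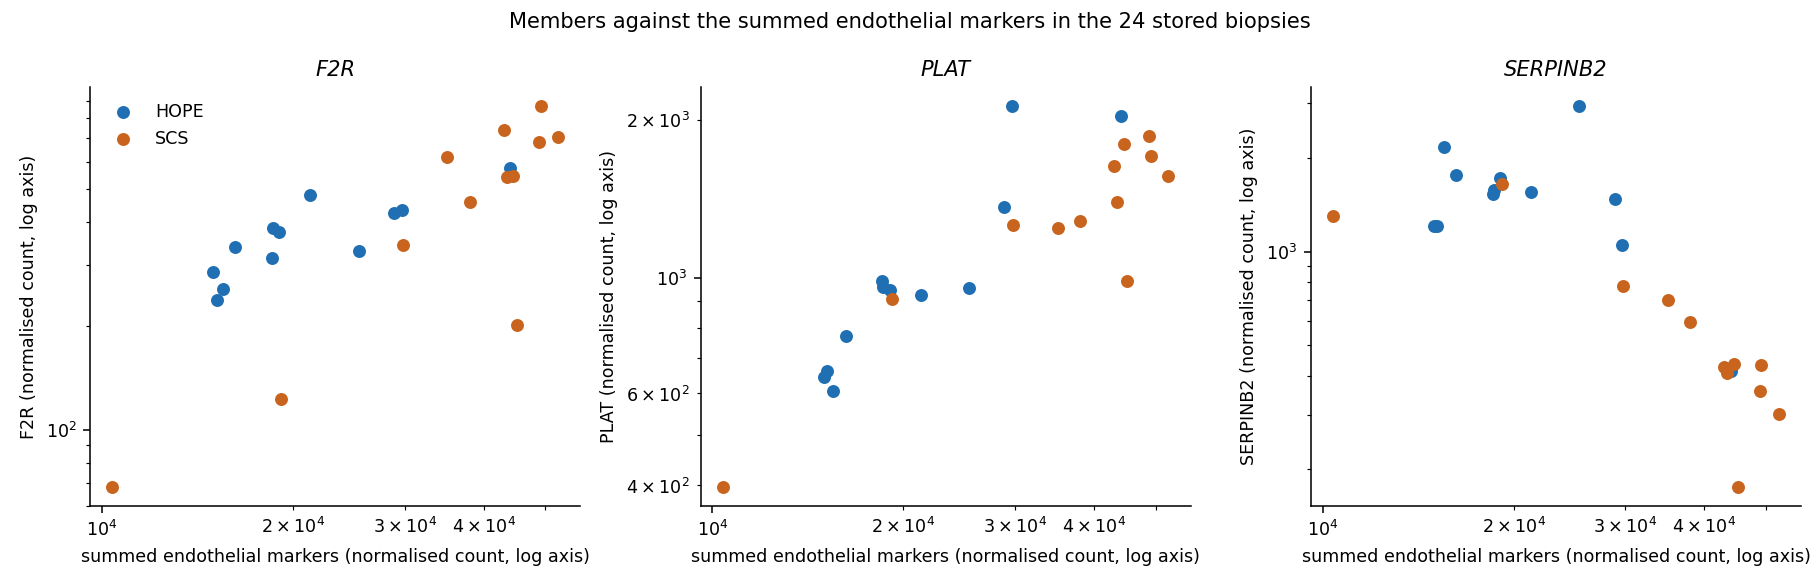
F2R, PLAT and SERPINB2 (vertical log axes, normalised counts) against the summed endothelial markers (horizontal log axes, normalised counts) in the 24 stored biopsies, HOPE in blue and SCS in orange. F2R and PLAT are higher where the endothelial sum is higher and SERPINB2 is lower; the SCS 48 h library of pig 1, with a sum of 10383, is the leftmost point.

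The genes most like each member across the 24 libraries were found among 11526 genes with a symbol and a mean of at least 50. F2R was closest to CAV1 (r = 0.97), the coat protein of caveolae, and among the next to ANO6 (0.95), a membrane scramblase. SERPINB2 was closest to POPDC2 (0.96), a Popeye-domain protein of heart and skeletal muscle, then to BZW2 (0.96) and SGCD (0.95), a sarcoglycan of the muscle membrane. SERPINE2 was closest to CSRP2 (0.93), a LIM-domain protein, S100A11 (0.91), a calcium-binding protein, and ZNF580 (0.90). TFPI2 was closest to RNASE4 (0.92), a secreted ribonuclease, GNG10 (0.92) and COPZ2 (0.91). THBD was closest to SLC25A24 (0.94), a mitochondrial ATP-Mg carrier, PLCB1 (0.93), a phospholipase, and IFNAR1 (0.93), an interferon receptor chain. PLAT was closest to EHD2 (0.94), an ATPase at caveolae, TAP1 (0.93), a peptide transporter, and SEMA6A (0.92), a semaphorin. F3 had no match as close: FAM219B reached 0.80, TUBG1, a tubulin of centrosomes, 0.78, and DNAJB2, a co-chaperone, 0.75. TFPI, with a mean under 50, was not compared.

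Of 40 other genes of clotting and fibrinolysis listed for this comparison, 37 were found and 28 tested in arm 1. At 24 h limma called 0 of the 28 higher and 2 lower under HOPE, where 0.771% of all genes were called lower. PROCR, the endothelial receptor of protein C, averaged 88.8 ± 11.9 normalised counts in HOPE hearts and 241 ± 68.1 in SCS hearts (SD, n = 3 each), a log2 fold change of -1.40 ± 0.35 (adjusted p = 0.0454). ANXA2, the annexin that with S100A10 forms a cell surface receptor for PLAT and plasminogen, averaged 2875 ± 373 in HOPE hearts and 6140 ± 481 in SCS hearts (log2 fold change -1.10 ± 0.28, adjusted p = 0.0493). At 48 h 0 of the 28 were called higher and 2 lower, against 2.41% of all genes called lower: ANXA2 again (-1.03 ± 0.28, adjusted p = 0.0405) and S100A10, which averaged 921 ± 419 in HOPE hearts and 2688 ± 962 in SCS hearts (-1.56 ± 0.39, adjusted p = 0.0310). Each of these 4 calls ended without HOPE pig 2, HOPE pig 4, SCS pig 3 or SCS pig 5 (limma adjusted p of 0.127 to 0.264), the 48 h ones also without the SCS 48 h library of pig 5 (0.153 for ANXA2, 0.129 for S100A10), and edgeR called ANXA2 at neither time (0.0574 and 0.0503). With total-read scaling none was called, and ANXA2 at 48 h turned to 0.09, or -1.03 relative to the shift of all genes. With the pig as a block, the calls were 5 lower and 0 higher at 24 h, and 2 lower and 2 higher at 48 h, where the block gave calls for 11.5% of all genes. The list's median log2 fold change was -0.55 at 24 h and -0.16 at 48 h, beside 0.01 and 0.02 over all genes.

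The remaining list genes gave fewer calls. In the biopsies of 0 and 12 h limma called 0 of 28, and the smallest p-values belonged to PROCR (-0.88 ± 0.35), F13A1, the fibrin-linking factor XIII chain (-0.59 ± 0.27), and GAS6, a ligand of TAM receptors (0.40 ± 0.19), at 0 h, and to PROCR (-1.20 ± 0.35), S100A10 (-1.20 ± 0.39) and ANXA2 (-0.84 ± 0.28) at 12 h. Over 48 h of SCS 0 of 28 were called without a block, where the smallest p-values were those of F13A1 (-0.51 ± 0.27), PLGRKT, a plasminogen receptor (-0.63 ± 0.34), and VKORC1, the vitamin K epoxide reductase (0.39 ± 0.22). Over 12 and 24 h 0 of 28 were called in either method, where the smallest p-values were those of S100A10, ANXA2 and ANXA5 at 12 h of HOPE, MCFD2 and GAS6 at 24 h of HOPE, GAS6, SERPING1 and VKORC1 at 12 h of SCS, and VKORC1, SERPING1 and ANXA2 at 24 h of SCS, with log2 changes of -0.46 to 0.60. With the pig as a block, over 48 h of SCS S100A10 was called higher (0.53, adjusted p = 0.0495) and THBS1, a platelet and matrix glycoprotein, lower (-0.74, adjusted p = 0.0411). Over 48 h of HOPE 0 of 28 were called; the smallest p-values were those of NT5E, the ectonucleotidase CD73 (0.82 ± 0.48), PROCR (-0.59 ± 0.35) and GGCX, the vitamin K-dependent carboxylase (0.27 ± 0.20). Platelet RNA was scarce: PPBP was at 0 in 20 of 24 libraries, and the 3 platelet markers found summed to 23.3 to 93.1 normalised counts in HOPE libraries and 51.8 to 187 in SCS libraries.

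After rewarming, SERPINB2 was the most abundant member in hearts preserved by HOPE. In TPM, a scale per gene length, the HOPE+NMP 24 h libraries averaged 1127 ± 462 for SERPINB2, 223 ± 20.3 for PLAT, 134 ± 29.6 for THBD, 79.8 ± 3.87 for TFPI2, 27.0 for F3 (17.8 and 36.2), 25.9 ± 3.64 for SERPINE2 and 0.209 ± 0.152 for TFPI (SD, n = 2 each). F3 and SERPINE2 differed by less than their spread, and the other neighbours in this order did not overlap. Over all 7 libraries the mean of SERPINB2 was higher than that of 99.6% of listed genes. In the lone SCS+NMP 24 h library the order was TFPI2 at 141 TPM, PLAT at 77.4, THBD at 73.5, SERPINE2 at 22.3, SERPINB2 at 5.02, F3 at 4.19 and TFPI at 0.747.

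SERPINB2 gave the largest difference among the members after rewarming. It read 5.02 TPM in the SCS+NMP 24 h library, against 800 and 1453 TPM in the HOPE+NMP 24 h libraries. The log2 fold change was -7.49 ± 1.03 with a limma adjusted p of 0.00122, in a fit of 4388 genes with 3 residual degrees of freedom that assumes the lone library to vary like the other groups. In that comparison 54.2% of all genes were called and 51.8% were called lower, and the median log2 fold change over all genes was -1.12. After scaling by median ratios, SERPINB2 stood at -6.74 (adjusted p = 0.00464).

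That SCS+NMP library stood apart from the HOPE+NMP 24 h libraries in its cardiomyocyte, fibroblast and red cell markers. Its 6 tested cardiomyocyte markers summed to 1821 TPM, against 35352 and 43647 TPM in the HOPE+NMP 24 h libraries, and all 6 were called lower, with a median log2 fold change of -4.70. Fibroblast markers summed to 2754 TPM there (4 of 5 called higher), against 902 and 1222 TPM in HOPE+NMP 24 h libraries. Endothelial markers summed to 217.5 TPM (4 of 8 called lower), against 447.9 and 542.9 TPM. Their median log2 fold change of -1.05 was near that of all genes (-1.12), of which 51.8% were called lower. Red cell markers summed to 6161 TPM in the SCS+NMP library, against 34.2 and 126 TPM in HOPE+NMP 24 h libraries. They were also high in the HOPE+NMP 48 h libraries, at 3125 and 1580 TPM. Mitochondrially encoded genes took 54.7% of TPM in the SCS+NMP library, against 47.9% and 39.8% in HOPE+NMP 24 h libraries, and 3005 genes reached 10 TPM there, against 4770 and 4867. The part of these shifts in the SERPINB2 difference was not tested, and with 1 SCS+NMP library the method and the library cannot be told apart.

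The other members differed less in that comparison. F3 read 4.19 TPM in the SCS+NMP library, against 17.8 and 36.2 TPM in HOPE+NMP 24 h libraries (log2 fold change -2.35 ± 0.91, limma adjusted p = 0.0576), and PLAT 77.4 TPM there, against 237 and 208 TPM in HOPE+NMP 24 h libraries (-1.51 ± 0.60, adjusted p = 0.0604). TFPI2 read 141 TPM in the SCS+NMP library, against 82.5 and 77.0 TPM in HOPE+NMP 24 h libraries (0.82 ± 0.72, adjusted p = 0.344). THBD read 73.5 TPM in the SCS+NMP library, against 113 and 155 TPM in HOPE+NMP 24 h libraries (-0.84 ± 0.67, limma adjusted p = 0.299). SERPINE2 read 22.3 TPM in the SCS+NMP library, against 23.3 and 28.5 TPM in HOPE+NMP 24 h libraries (-0.20 ± 0.46, limma adjusted p = 0.719; 0.59 with median-ratio scaling). Median-ratio scaling moved the median of all genes in this comparison from -1.12 to -0.36. With it the log2 fold change was -1.63 for F3, -0.70 for PLAT, 1.63 for TFPI2 and -0.03 for THBD. For all 6 tested members the SCS+NMP value lay outside the HOPE+NMP 24 h values, as for 95.1% of all genes. The arms used different library kits and units, so no test was made between this SERPINE2 value and its arm 1 difference.

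**Figure D5:**
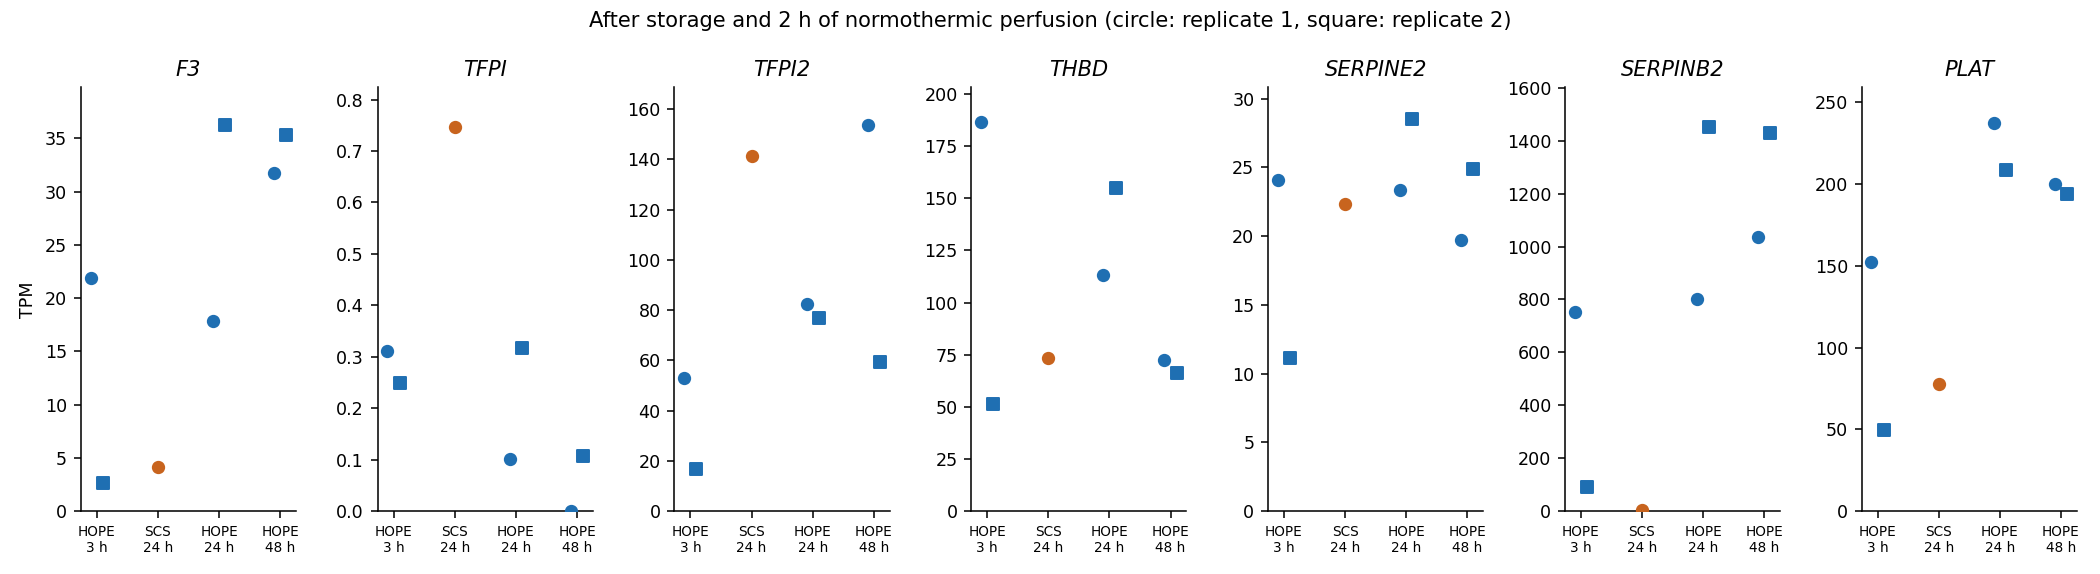
TPM of the 7 genes found in arm 2 (vertical axes from 0, a scale of its own for each gene) in hearts after 2 h of normothermic perfusion that followed 3 h of HOPE, 24 h of SCS, 24 h of HOPE or 48 h of HOPE; blue points are HOPE and orange points SCS, circles replicate 1 and squares replicate 2. SERPINB2 reads 5.02 TPM in the SCS library and 800 and 1453 TPM in the HOPE libraries of the same storage time, and replicate 2 of the 3 h group is the lower of its pair for every gene.

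Longer HOPE before rewarming gave no member call. Limma called 0 of 6 members between 24 and 3 h (0% of all genes called), 0 of 6 between 48 and 3 h (0% called) and 0 of 6 between 48 and 24 h (0.0684% called), with 3, 4 and 0 members at an unadjusted p under 0.05 (15.1%, 8.07% and 3.42% of all genes). SERPINB2 read 752 and 90.8 TPM after 3 h, 800 and 1453 TPM after 24 h and 1037 and 1430 TPM after 48 h, with log2 fold changes of 2.04 ± 0.84 at 24 h and 2.21 ± 0.84 at 48 h against 3 h. PLAT read 152 and 49.5 TPM after 3 h, 237 and 208 TPM after 24 h and 200.1 and 193 TPM after 48 h. Without replicate 1 of the 3 h group, replicate 2 was the lone 3 h library. The log2 fold change at 24 against 3 h was then 3.56 for SERPINB2 and 2.15 for PLAT. Replicate 2 of the 3 h group was the lower of its pair for all 7 genes found; it had 51.1% of TPM in mitochondrially encoded genes and 3835 genes at 10 TPM or more, against 40.6% and 4544 in replicate 1.

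Groups of storage times did not overlap for 3 of the 6 members between 24 and 3 h, 4 between 48 and 3 h and 2 between 48 and 24 h, against 49.7%, 32.5% and 38.6% of all genes. F3 read 21.9 and 2.68 TPM after 3 h, 17.8 and 36.2 TPM after 24 h, and 31.8 and 35.3 TPM after 48 h, apart between 48 and 3 h (log2 fold change 1.91 ± 0.75, limma adjusted p = 0.547). TFPI2 read 53.0 and 16.8 TPM, 82.5 and 77.0 TPM, and 154 and 59.5 TPM at these times, apart at 24 against 3 h (1.38 ± 0.59, limma adjusted p = 0.329) and at 48 against 3 h (1.64 ± 0.59, limma adjusted p = 0.520). SERPINB2 and PLAT were apart in these 2 comparisons as well, and PLAT also between 48 and 24 h. THBD read 187 and 51.4 TPM after 3 h, 113 and 155 TPM after 24 h, and 72.3 and 66.1 TPM after 48 h, with no overlap between 48 and 24 h (-0.93 ± 0.54, limma adjusted p = 0.996). SERPINE2 stayed between 11.2 and 28.5 TPM, and TFPI between 0 and 0.317 TPM, in the 6 HOPE+NMP libraries.

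Of the 40 listed clotting genes, 35 were found and 11 tested in arm 2. Between SCS+NMP and HOPE+NMP at 24 h limma called 1 higher and 4 lower. SERPING1, the C1 inhibitor, read 247 TPM in the SCS+NMP library, against 107 and 111 TPM in HOPE+NMP 24 h libraries (log2 fold change 1.18 ± 0.41, adjusted p = 0.0395). GAS6 read 24.5 TPM in the SCS+NMP library, against 105 and 120 TPM in HOPE+NMP 24 h libraries (-2.15 ± 0.37, adjusted p = 0.00291). PLGRKT read 6.33 TPM in the SCS+NMP library, against 34.2 and 56.5 TPM in HOPE+NMP 24 h libraries (-2.62 ± 0.50, adjusted p = 0.00457). MCFD2, part of a cargo receptor for factors V and VIII, and VWF, which tethers platelets to the vessel wall, were the other 2 called lower, at -1.41 ± 0.42 (adjusted p = 0.0232) and -1.97 ± 0.60 (adjusted p = 0.0254). Leaving out replicate 1 or replicate 2 of HOPE+NMP 24 h ended the calls of SERPING1 (limma adjusted p = 0.126 or 0.146) and MCFD2 (0.0900 or 0.0704), leaving out replicate 1 ended that of VWF (0.0805), and those of GAS6 and PLGRKT held. Median-ratio scaling also ended the calls of MCFD2 (0.293) and VWF (0.137). Over all genes 51.8% were called lower and 2.42% higher in that comparison. Between HOPE storage times 0 of 11 were called in each of the 3 comparisons; the smallest p-values were those of THBS1, ANXA5 and VWF at 24 against 3 h, THBS1, S100A10 and PLAU at 48 against 3 h, and NOS3, MCFD2 and ANXA2 at 48 against 24 h.

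By symbol in the RefSeq annotation of Sscrofa11.1, all 8 members are protein-coding genes on 6 chromosomes. SERPINE2 spans positions 125748383 to 125777788 and TFPI 92345083 to 92409962 of chromosome 15. PLAT spans 11195599 to 11223821 and THBD 30219870 to 30223499 of chromosome 17. F2R spans 85642794 to 85659133 of chromosome 2, F3 122827018 to 122837673 of chromosome 4, TFPI2 73684236 to 73694663 of chromosome 9 and SERPINB2 157871919 to 157886525 of chromosome 1. THBD carries different gene identifiers in the 2 tables (ENSSSCG00000053422 in arm 1 and ENSSSCG00000007115 in arm 2), so its values in the arms may rest on different gene models. The other identifiers in the files are ENSSSCG00000016233 for SERPINE2, ENSSSCG00000016032 for TFPI, ENSSSCG00000007032 for PLAT, ENSSSCG00000035355 for F2R, ENSSSCG00000022447 for F3, ENSSSCG00000015322 for TFPI2 and ENSSSCG00000004890 for SERPINB2.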

How the data were processed

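RNA was sequenced from myocardial biopsies, with a stranded poly(A) kit in arm 1 and another poly(A) kit with spike-in RNA in arm 2, per the labels' protocols. Without saying which was used for which arm, the submitters' processing notes list STAR 2.5.2b, HISAT2 2.2.1, Subread 1.5.2, featureCounts 2.0.6, DESeq2 and the build Sscrofa11.1; the use of strand in counting is not given, so reads from antisense genes cannot be told apart. The arm 1 file holds a signal, the authors' normalised counts, as deposited: every value (100%) was a whole multiple of the value of 1 read of its library within a relative tolerance of 1e-06, so whole reads were recovered. These size factors set library depth aside, and values remain relative to all other RNA of a biopsy. The arm 2 file holds TPM as deposited by the authors, which keeps no depth; 11 further columns match no sample and were not used.

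Values were transformed as log2(value + 1), which understates fold changes of low genes, and tested with limma 3.58.1 in R 4.3.3 (group means, trended empirical Bayes), within each arm, over genes with a mean of at least 10 (14141 in arm 1, 4388 in arm 2; TFPI in arm 2 fell under it). Arm 1 had 16 residual degrees of freedom and arm 2 had 3. P-values were adjusted over all genes tested (Benjamini-Hochberg, threshold 0.05). The pig was added as a fixed term for changes from 0 h and as a random term (estimated correlation 0.44) between methods; biopsies of a pig deviated together from their group means (r of 0.399 to 0.730 in 18 HOPE pairs and 0.232 to 0.720 in 18 SCS pairs), and the pairing comes from the pig numbers in the labels. Exact permutation tests over pigs were two-sided. Alternatives were edgeR 4.0.16 and DESeq2 1.42.0 on the recovered reads, other scalings, pseudocounts and filters, and leaving out pigs or libraries. The fits were tested on simulated data. Arm 2 was planned as normalised counts and treated as TPM after its values were seen.

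All 8 members were tested in every arm 1 comparison, though not every value is printed. Of the listed clotting genes, those called are named, or up to 3 with the smallest p where none was. Genes like a member are among the 3 with the highest r. A gene under each of these rules is not reported here. The members and lists were chosen with earlier results of these data known. Sequences of the members were not used here.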

Additional observations from a re-analysis of the deposited data

Results flagged for a closer look

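SERPINE2 was singled out because its change over the first 24 h had opposite signs under the methods: it was lower than at 0 h in all 3 HOPE hearts (log2 change of -0.10, -0.77 and -0.49) and higher in all 3 SCS hearts (1.03, 0.51 and 0.22). The difference in change, a comparison added after the data were seen, was -1.04 ± 0.30 (log2, SE). Limma's test of that difference gave an unadjusted p of 0.00247 and an adjusted p of 0.9997 over all genes without a block, and an adjusted p of 0.631 with the pig as a random block. The exact permutation test over the 6 pigs gave p = 0.1, the smallest it can give. Opposite signs in all hearts always give this p, so it adds nothing to the rule that singled the gene out. Of all genes, 4.29% showed opposite signs in the same way.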

How the results depend on the processing

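With the pig as a replicate block, 1 member was called over 48 h of SCS (F2R), 3 between HOPE and SCS at 24 h, and the block changed no other member call of arm 1. In arm 2 the replicate block on the label's number called 3 members between SCS+NMP and HOPE+NMP at 24 h (adding F3 and PLAT). Of the 11 listed clotting genes it called 0 higher and 6 lower, so that SERPING1 was no longer called (1.00, adjusted p = 0.0723). Over all genes this block called 55.8% in that comparison and 53.5% lower, so these counts lie near the shares of all genes. Same-numbered libraries had deviations with r of 0.09 to 0.384, and the labels do not say that numbers pair hearts. DESeq2 called 1 member at 12 h and 2 at 24 h between the methods. The number of all genes it called at 24 h is given below, and that at 12 h is not given here. Total-count scaling, which moved the median of all genes by -0.99 over 48 h of SCS, gave 4 called over 48 h of SCS, and 0 at 24 h and 5 at 48 h between the methods (F3, F2R, THBD, SERPINB2 and PLAT higher under HOPE, beside an all-gene shift of 1.12). The share of all genes called under this scaling is not given here. This scaling also called 13 of 28 listed clotting genes and 0 of 7 cardiomyocyte markers over 48 h of SCS. It called 9 of 28 and 5 of 7 of them at 48 h between the methods, so these counts include the shift of all genes. It turned the sign in SCS hearts for SERPINE2 (-0.19 at 12 h, -0.35 at 48 h), TFPI2 (-0.20 at 12 h, -0.29 at 24 h, -0.74 at 48 h), F3 (-0.10 at 24 h, -0.70 at 48 h), SERPINB2 (-0.06 at 12 h, -0.19 at 24 h) and THBD (-0.32 at 24 h), and in the 48 h change of HOPE minus SCS for SERPINE2 (0.37), TFPI2 (0.51) and F3 (0.61). It also turned 2 members at 12 h of HOPE (F3, TFPI), 2 at 12 h (F2R, TFPI) and 1 at 24 h (F2R) between the methods, and 3 at 12 h (TFPI2, THBD, PLAT) and 2 at 24 h (TFPI2, THBD) in the change of HOPE minus SCS. No value whose sign turned was called under either scaling. The cause was not tested. Among the listed clotting genes, the 24 h calls of PROCR and ANXA2 also ended without a filter on low values (adjusted p = 0.0624 and 0.0647) and with total reads less mitochondrial genes (0.0527 each), that of ANXA2 with TMM scaling (0.0507), and that of SERPING1 with a minimum mean of 1 (0.0621). Median-ratio scaling turned SERPINE2 after rewarming to 0.59.

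Leaving out 1 pig or library, with or without the block, gave 0 to 1 members called between HOPE and SCS at 0 h, 0 to 2 at 12 h, 1 to 5 at 24 h and 0 to 4 at 48 h, 0 to 3 over 48 h of SCS, 0 to 2 at 24 against 3 h of HOPE+NMP, and 1 to 3 between SCS+NMP and HOPE+NMP. Without SCS pig 1, with or without the block, F3 stood at -0.18 over 24 h and -0.32 over 48 h of SCS (up to 0.60 and 0.62 without SCS pig 3), its 48 h change of HOPE minus SCS at 0.21 (down to -0.73 without SCS pig 3), and THBD at -0.53 between the methods at 48 h (up to 0.64 without SCS pig 3). With the block and without the SCS 48 h library of pig 1, F3 over 48 h of SCS was -0.17. SERPINB2 in SCS hearts ran from -0.63 to 0.47 over 24 h and from -0.91 to 0.53 over 48 h, and PLAT in HOPE hearts from -0.44 to 0.18 over 12 h and from -0.59 to 0.046 over 24 h. In HOPE+NMP hearts, leaving out a library gave -0.49 to 1.35 for THBD at 24 against 3 h, -1.42 to 0.42 for THBD and -0.12 to 0.93 for SERPINE2 at 48 against 3 h, and -0.42 to 0.94 for TFPI2 at 48 against 24 h. None of these sign changes involved a called value. Over all genes, calls between HOPE and SCS numbered 288 at 24 h (2 to 2721 without a pig, 219 with edgeR, 1534 with DESeq2, 1396 with the block) and 884 at 48 h (5 to 3282, 841, 1931 and 1628).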
